A study of Mus musculus with 6 samples.

Results

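The peaks described here are the 390 regions with trimethylated histone H3 lysine 4 (H3K4me3) that were called in Tcf7-deficient natural killer (NK) cells and met no such peak in wild-type cells. They were chosen by the called borders of the peaks in both H3K4me3 lists, out of the 11063 KO H3K4me3 peaks on chromosomes 1 to 19 and X, as those sharing no base with any of the 13753 WT H3K4me3 peaks. They made up 3.53% of the KO list, a share fixed by the rule that chose them. KO cells were Tcf7-/- with the strain given as B6.129 Tcf7Tm1Cle, and WT cells were Tcf7+/+ with the strain given as B6. Strain background and genotype therefore cannot be told apart. NK cells of the spleen, kept for 5 days in 500 ng/mL of the growth cytokine IL-2, were fixed in 1% formaldehyde for 10 minutes at 37 °C. There were 6 libraries in 6 groups, with Tcf1 antibody, H3K4me3 antibody and input chromatin for each genotype. With 1 library in a group, nothing below could be checked against replicates, and no p-values are given. How many mice were used, and their sex and age, is not given in the sources used here. KO had 4 H3K4me3 peaks at genes of chromosome Y where WT had none. Any difference in the sex of the mice likewise cannot be told apart from genotype.

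H3K4me3 is placed by SET1 and MLL methyltransferase complexes and sits around the start sites of active or poised genes. It is strongest at promoters rich in CpG dinucleotides, where CXXC-domain proteins bring these complexes to unmethylated DNA, and weaker at enhancers and at CpG-poor promoters of tissue-specific genes. NK cells are innate lymphocytes whose killing is set by a balance of activating and inhibitory receptors. Tcf1, the product of Tcf7, binds DNA through an HMG box and is needed for normal NK cell development. The NK cell label of the samples was checked against an NK marker list, counting every H3K4me3 peak. Of 11 NK marker genes, 10 carried a KO H3K4me3 peak within 1 kb of the transcription start site (TSS), against 11 in WT. Of the 390 peaks called only in KO, 0 lay within 1 kb of these start sites. Of markers of other cells, KO peaks marked 4 of 13 T cell, 1 of 10 B cell, 0 of 12 myeloid and 1 of 12 erythroid or platelet genes, against 6, 1, 1 and 2 in WT.

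Of the 390 peaks, 26 lay within 1 kb of the TSS of 27 protein-coding genes. RefSeq holds a promoter sequence for 21 of these genes, and 5 of them are shown, those whose peaks held most tags. H2ac1, which shares the peak of H2bc1, is left out. The 5 are an NK receptor, a gene of no assigned role, a testis histone, a hair keratin-associated protein and a germ-cell gene. Each line is the 250 bases before the TSS in the RefSeq table of assembly GRCm38.p6, read 5′ to 3′ on the gene's own strand, with every CpG dinucleotide in capitals.
Klra9, chr6:130193113-130193362, minus strand: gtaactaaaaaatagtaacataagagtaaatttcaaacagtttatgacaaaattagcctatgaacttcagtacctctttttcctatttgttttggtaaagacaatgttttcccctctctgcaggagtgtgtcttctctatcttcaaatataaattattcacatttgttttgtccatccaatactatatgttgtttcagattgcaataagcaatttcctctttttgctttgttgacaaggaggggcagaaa
3110040M04Rik, chr1:151203871-151204120, plus strand: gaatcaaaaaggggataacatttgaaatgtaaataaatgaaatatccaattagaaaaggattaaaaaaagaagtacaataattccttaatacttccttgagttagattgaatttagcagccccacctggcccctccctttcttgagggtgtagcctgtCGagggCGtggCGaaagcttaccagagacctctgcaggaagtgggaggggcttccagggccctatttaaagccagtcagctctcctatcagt
H2bc1, chr13:23934157-23934406, minus strand: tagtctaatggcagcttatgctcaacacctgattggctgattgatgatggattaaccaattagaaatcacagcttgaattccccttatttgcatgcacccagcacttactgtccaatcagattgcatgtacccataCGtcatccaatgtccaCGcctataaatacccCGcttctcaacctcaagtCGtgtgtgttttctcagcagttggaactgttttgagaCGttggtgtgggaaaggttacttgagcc
Krtap4-9, chr11:99784950-99785199, plus strand: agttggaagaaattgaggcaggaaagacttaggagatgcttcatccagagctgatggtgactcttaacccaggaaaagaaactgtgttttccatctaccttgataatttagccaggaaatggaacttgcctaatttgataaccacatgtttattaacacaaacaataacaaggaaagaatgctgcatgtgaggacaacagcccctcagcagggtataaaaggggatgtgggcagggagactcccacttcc
Mael, chr1:166238745-166238994, minus strand: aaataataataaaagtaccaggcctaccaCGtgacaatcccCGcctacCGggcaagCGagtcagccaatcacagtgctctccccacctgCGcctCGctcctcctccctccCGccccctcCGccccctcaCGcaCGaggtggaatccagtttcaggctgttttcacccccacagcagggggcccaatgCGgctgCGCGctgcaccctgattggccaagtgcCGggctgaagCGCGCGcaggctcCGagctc
The Klra9 and Krtap4-9 stretches held 0 CpG, the 3110040M04Rik stretch held 3, the H2bc1 stretch held 5 and the Mael stretch held 18.

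Over the 300 bases that the table gives per promoter, 250 before and 50 after the TSS, the 21 promoters were poor in CpG. Their median was 5 CpG (range 0 to 28), against 22 in the 10027 promoters under KO peaks shared with WT, 21 in the 1200 under peaks called only in WT, and 13 in all 21045. The median ratio of observed to expected CpG was 0.304, against 0.804 in shared, 0.709 in WT-only and 0.574 in all promoters. A ratio of at least 0.6 was reached by 4 of 21 (19.05%, 95% Wilson interval 7.67 to 40.0), against 79.6% of shared, 65.9% of WT-only and 48.1% of all promoters. Median GC content was 45.7%, against 62% in shared and 64% in WT-only promoters. The interval met the share of none of the other 3 sets. Leaving out the 5 Krtap promoters left 16, with a median ratio of 0.446 and 25% (10.2 to 49.5) at 0.6 or more, an interval that then held the share of all promoters. Wilson intervals here and below cover counting error over peaks or promoters within these libraries, and neighbouring peaks are not independent.

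Short motifs were searched on both strands of the same 300 bases. The Tcf/Lef core CTTTGA was in 1 of 21 promoters (4.76%), against 14.4% of all promoters, and its longer form CTTTGAT, which contains the core, was in the same count of 1, against 3.25% of all. The Runx core TGTGGT was in 4 (19.05%), against 14.7% of all. The Ets-like GGAAGT was in 8 (38.1%), against 24.97% of all. The T-box element TCACAC was in 4 (19.05%), against 12.8%, the AP-1 form TGANTCA in 3 (14.3%), against 7.04%, the Gata form GATAAG in 0, against 6.95%, and the E-box CACGTG in 4 (19.05%), against 7.91%. With 21 promoters, the Wilson interval of each of these 8 shares held the share of all promoters. A match is a run of letters and not a measured binding site.

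The 390 peaks were weak. They held a median of 37 tags (reads counted in the peak; range 22 to 378), against 587 (28 to 5545) in the 10673 KO peaks shared with WT and 60 (17 to 9716) in the 3089 peaks called only in WT. Their median width was 881.5 bp, against 2106 bp in shared and 1241 bp in WT-only peaks, and their median density was 42.8 tags per kb, against 277.8 and 46.7. Together they held 18603 tags, 0.248% of all tags in KO peaks, over 392.6 kb, which was 1.56% of the covered length. These values belong to the measurement that chose the peaks, so they describe them and are not tested.

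The authors' own peak scores placed the same regions near the lower end of the KO list. Scores here are −10 × log10 of the p-value from peak calling, and the median over the 390 peaks was 57.3 (50.06 to 315.96), against 2054.5 in shared KO peaks and 108.7 in WT-only peaks. A score of at least 100 was reached by 21 (5.38%), against 94.9% of shared KO peaks and 53.5% of WT-only peaks. The authors' false discovery rate (FDR) had a median of 22.4% over the 390 peaks, and 5 were at 1% or less. Among WT-only peaks the FDR had a median of 0.11% and a highest value of 1.39%, whereas the KO list reached 29.52%. At equal score the KO library therefore carried a higher listed FDR than the WT library. Fold enrichment over the caller's background had a median of 5.05 (3.05 to 10.18), against 18.8 in shared KO peaks and 6.95 in WT-only peaks.

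**Figure D1:**
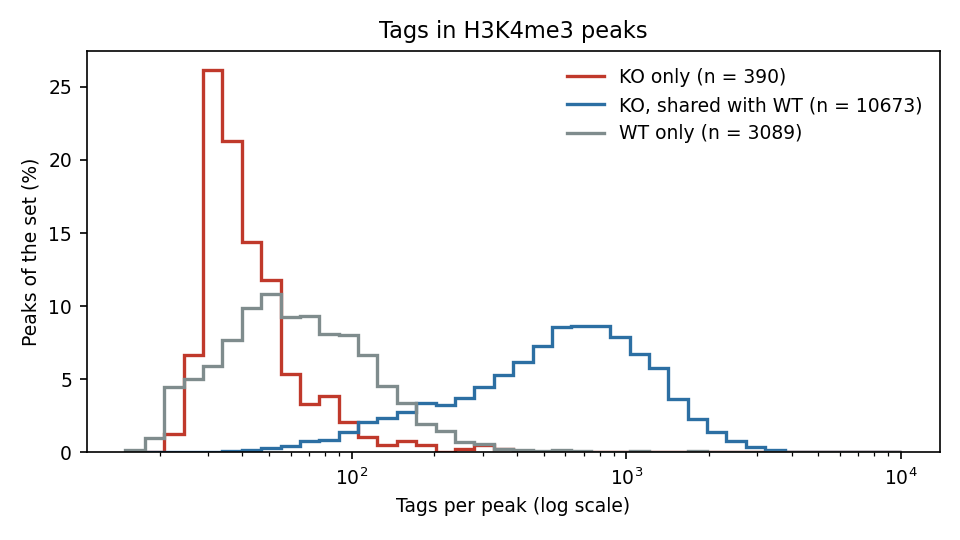
Tags per peak on a log scale, as the percentage of each set of H3K4me3 peaks, for 390 KO-only, 10673 KO peaks shared with WT and 3089 WT-only peaks. The KO-only peaks gather around their median of 37 tags, far to the left of the shared KO peaks at 587 and left of the WT-only peaks at 60.

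What WT chromatin held at these places is known only as the absence of a listed peak, since the lists give no values outside peaks, so no KO to WT fold can be given. In 10502 pairs of peaks matched 1 to 1, the median ratio of KO to WT tags was 1.19. At that ratio, 37 KO tags would stand against 31.1 WT tags, and 461 of the WT peaks held that many or fewer, of which 440 were WT-only. WT peaks of that size were thus listed at other places. Whether a like WT signal at the KO-only places would have been listed cannot be read from this. Fold enrichment ran the other way in the same pairs, with a median of 18.8 in KO and 40 in WT, and was lower in KO in 96.9% of pairs. Among the 364 pairs with at most 100 KO tags, the median tag ratio was 1.04, and WT peaks were not counted at that ratio. The median score of these 364 pairs was 81.8 in KO and 197.0 in WT. The part of these differences between the libraries in the presence of KO-only calls was not tested.

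Distance to WT peaks separates regions beside a WT peak from isolated ones. The median gap to the nearest WT H3K4me3 peak was 141 kb (0.051 to 2902), against 46.4 kb from WT-only peaks to the nearest KO peak. The gap was within 1 kb for 4 peaks, within 5 kb for 11, within 50 kb for 102 (26.2%, 22.04 to 30.7) and over 1 Mb for 26. Among WT-only peaks 51.5% lay within 50 kb of a KO peak. Among the 21 KO-only peaks scoring at least 100, 57.1% were within 50 kb of a WT peak. Of all 390 KO-only peaks, 372 had no other KO-only peak within 100 kb, with 7 pairs and 1 group of 4. Many were still near other peaks, since 168 of the 390 (43.1%) lay within 100 kb of a WT peak.

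At the edge of the rule, the smallest gaps were 51 bp near Camk2b (79 tags), 200 bp near Tagap (79 tags), 239 bp at Gsk3b (53 tags) and 380 bp in Coro2a (378 tags). Camk2b and Gsk3b encode protein kinases, Gsk3b being the kinase that marks beta-catenin for destruction, and Tagap encodes a GTPase-activating protein of lymphocytes. Their nearest WT peaks held 494, 45, 1385 and 78 tags. The 4 KO peaks left out by the smallest overlaps, near Gm51582, Elk4, Gm52006 and Gata3, held 112, 66, 79 and 40 tags and shared 109, 177, 551 and 556 bp with WT peaks of 359, 997, 65 and 24 tags. The Gm52006 peak lay wholly inside its WT peak, all 551 bp of it, so a small overlap there is a narrow peak and not a border.

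Of the 5 highest scores, 3 were at NK receptor genes. Klra9 encodes Ly49I, an inhibitory receptor for MHC class I, and its KO peak (chr6:130191707-130193454, over the TSS) held 110 tags (95% Poisson interval 90.4 to 133) with a score of 315.96 and an FDR of 0.2%. No WT peak was listed within 28.2 kb. Klrg1 encodes an inhibitory receptor for cadherins that marks mature NK cells, and its KO peak (chr6:122281817-122283231, over the TSS) held 158 tags (134 to 185) with a score of 305.53 and an FDR of 0.22%. A further KO-only peak of 48 tags lay next to it in the gene (chr6:122280703-122281704, FDR 22.7%), which makes 206 tags, and the nearest WT peak was 9.51 kb away. Klra5, which encodes Ly49E, carried 83 tags (66.1 to 103) at chr6:129909429-129910812, 2.41 kb downstream of the TSS, with an FDR of 0.52%. An adjoining peak of 50 tags (chr6:129907972-129909209, FDR 9.19%) made 133 tags in all, 153 kb from any WT peak. Poisson intervals cover counting error only.

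Crtam and Cxcr6 carried weaker calls. Crtam encodes an adhesion receptor of activated NK and T cells, and 90 KO tags (72.4 to 111) covered its TSS (chr9:41003144-41004862) with an FDR of 11.9% and no WT peak within 67.9 kb. In Cxcr6, which encodes the receptor for the chemokine Cxcl16, 70 tags (54.6 to 88.4) lay 1.02 kb downstream of the TSS (chr9:123807498-123808869, FDR 14.5%), also inside the overlapping gene Fyco1. Over the NK receptor list, 3 of 38 genes had a KO-only peak within 1 kb of the TSS, against a background of 0.136% of all 19784 genes with a known TSS. The list was chosen with earlier results of these data known, so the contrast is a description only. Counting every KO and WT peak, 19 genes of this list were marked in KO and 23 in WT.

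**Figure D2:**
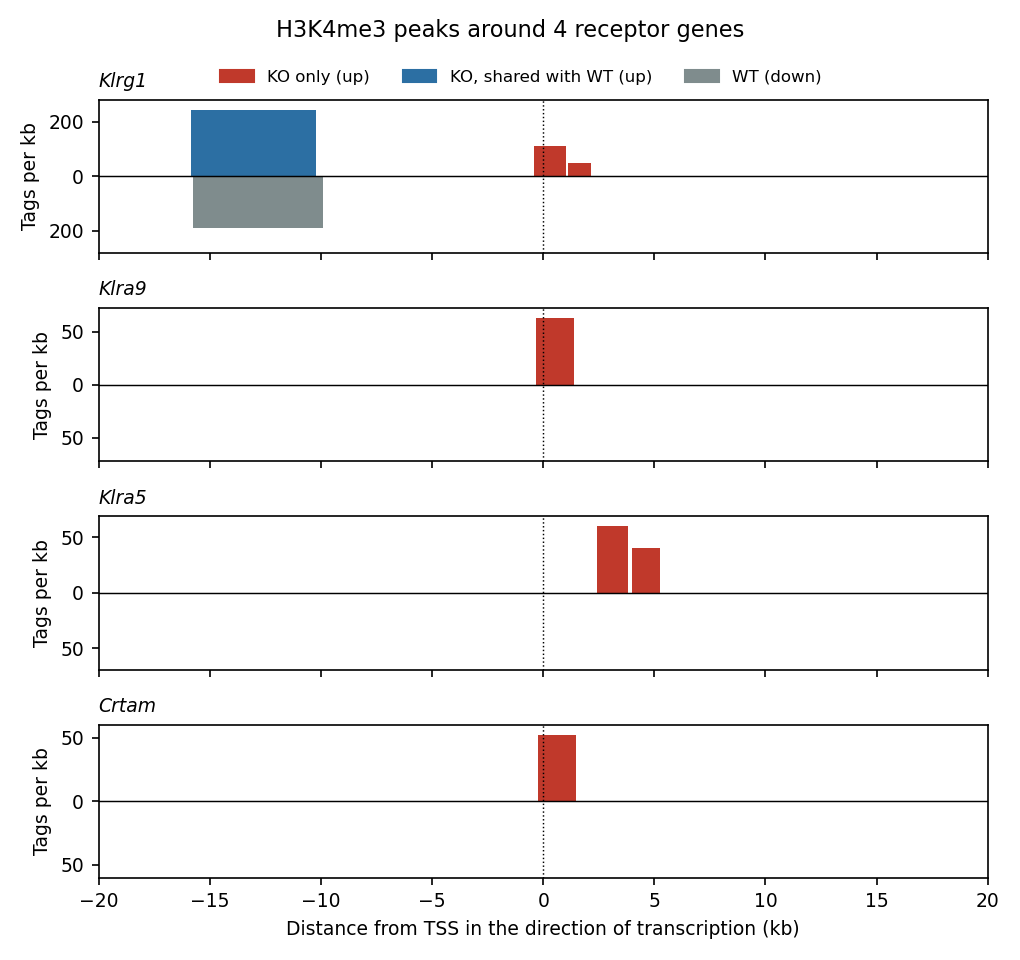
H3K4me3 peaks within 20 kb of the TSS of Klrg1, Klra9, Klra5 and Crtam, with height in tags per kb of peak, KO upwards and WT downwards, and distance in kb in the direction of transcription. KO-only peaks cover the TSS of Klrg1, Klra9 and Crtam and lie 2.41 kb inside Klra5, and the 1 WT peak in these windows is upstream of Klrg1 beneath a shared KO peak.

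The Ly49 genes form a cluster of near-identical copies on chromosome 6, and their content differs between mouse strains. Across the stretch that holds 10 of them (chr6:129831154-130386874), KO had 9 peaks with 842 tags, of which 3 with 243 tags were KO-only, and WT had 14 peaks with 1225 tags, of which 7 with 344 tags were WT-only. Each library thus had calls in the cluster that the other lacked. They were 33.3% of KO and 50% of WT peaks there, against 3.53% and 22.5% over all peaks of each list. The counts in the cluster are small, and this contrast was not tested. Klra7 was marked in both, with 256 tags in KO and 283 in WT, as was Klra8, with 90 in KO and 81 in WT. Klra4, which encodes Ly49D, had no KO peak and 166 tags in 2 WT peaks. Reads from near-identical genes can be placed on a wrong copy, and how such reads were treated is not given in the sources used here.

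Coro2a and Dapk2 held the other strong calls. Coro2a encodes an actin-binding coronin, and its KO-only peak (chr4:46575896-46579706) had the most tags of all 390, 378 (341 to 418), with a score of 282.52 and an FDR of 0.26%. It lay in the gene, 0.38 kb from a small peak found in both libraries with 88 KO and 78 WT tags. The large peak at the 5′ end of the gene had 2700 tags in KO and 1799 in WT. Dapk2 encodes a calmodulin-dependent death-associated kinase, and 105 tags (85.9 to 127) lay near the 3′ end of the gene (chr9:66268378-66269612, FDR 0.32%), 35.2 kb from any WT peak. The Dapk2 promoter peak held 599 tags in KO and 480 in WT. Klra9, Klrg1, Coro2a, Dapk2 and Klra5 were all 5 peaks with an FDR of 1% or less.

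Below these, several transcriptional and metabolic genes carried KO-only peaks of 86 to 187 tags. Zfp683, which encodes the lymphocyte residency factor Hobit and is typed as a pseudogene in the RefSeq table, had 187 tags (161 to 216) at chr4:134057006-134059434 with an FDR of 2.23%. Grk5, a kinase of G protein-coupled receptors, had 186 tags inside the gene (FDR 2.54%), and Cerk, ceramide kinase, had 166 tags 8.27 kb upstream of its TSS (FDR 3%). Inside Ppat, an enzyme of purine synthesis, 133 tags were found (FDR 1.54%). Ctse, the protease cathepsin E, had 117 tags inside the gene (FDR 3.14%), and Foxn3, a forkhead repressor, had 86 (FDR 1.72%). Near Gm45978, 120 tags lay 2.18 kb upstream of the TSS (FDR 1.25%). The nearest WT H3K4me3 peak was 33.1 kb from the Zfp683 peak and 7.85 kb from the Cerk peak.

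Tcf7 itself held a KO-only peak. It lay inside the gene (chr11:52255460-52257306), 21.9 kb from the nearest WT peak, with 88 tags (70.6 to 108), a score of 64.93 and an FDR of 16.7%. The Tcf7 promoter peak was called in both libraries, with 535 tags in KO and 525 in WT, so H3K4me3 at the promoter does not check the loss of the protein. Within 20 Mb of the Tcf7 TSS, 2 of 264 KO peaks were KO-only (0.758%, 0.208 to 2.72), against 17 of 634 (2.68%, 1.68 to 4.25) on the rest of chromosome 11. These intervals overlap, and the 17 include 6 neighbouring peaks between positions 99583009 and 99949165.

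The other promoter peaks included genes known from hair, skin and germ cells. At 26 of the 27 genes no WT peak came within 1 kb of the TSS, and Pld1, a phospholipase, had a shared peak as well. Keratin-associated proteins build the hair shaft, and 6 of the 52 Krtap genes with a known TSS (11.5%) carried a KO-only peak, against 0.136% of all genes, a family singled out after its values were seen. The peaks held 57 tags at Krtap4-9, 53 at Krtap10-4, 40 at Krtap1-3, 38 at Krtap4-7, 37 at Krtap9-5 and 31 at Krtap1-4. No Krtap gene had a WT peak within 1 kb. With Gm11938, the 6 on chromosome 11 ran from 99583009 to 99949165, with 31 to 57 tags and FDRs of 11.87 to 23.63%, and 2 of the 6 lay over a KO Tcf1 antibody peak. The skin genes Dsc2, a desmosomal cadherin, and Crct1 had 59 and 34 tags.

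Of the 26 promoter peaks, 4 were at genes known from germ cells, with FDRs of 22.6% or more and no list of such genes tested. The divergent pair H2bc1 and H2ac1, which encode histones of testis and oocyte, shared 1 peak of 67 tags (51.9 to 85.1; chr13:23933400-23934980, FDR 22.6%), 169 kb from any WT peak. Mael, a germ-line factor that holds transposons silent, had 56 tags (FDR 25.1%), Topaz1, a testis protein, had 49 (FDR 29%), and Tsga8, a protein of spermatids, had 36 (FDR 23.1%). Rspo2, a secreted enhancer of Wnt signalling, had 43 tags, and the zinc finger gene Zfp300 on X had 52. Lyplal1, a lysophospholipase-like gene, had 48 tags, and LOC115488283 had 41. The most tags at a promoter outside the receptor genes were at 3110040M04Rik, with 126 (105 to 150) and an FDR of 24.9%. These kinds were named after the values were seen, except for the histones. Apart from the receptors and Dsc2, whose FDR was 7.64%, the peaks at these promoters had FDRs above 10%.

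Among the 15 gene lists, chosen with earlier results of these data known, promoter calls were few. Together 5 of 487 listed genes with a known TSS had a KO-only peak within 1 kb (1.03%, against 0.136% of all genes), the 3 receptors and the 2 histone genes. Within 50 kb of the gene, 16 of 549 listed genes had such a peak (2.91%), against 2.29% of all 21631 genes. All other lists had 0 at promoters, among them cytotoxic effectors, cytokines, homing receptors, checkpoints, transcription factors, Tcf/Lef and Wnt genes, cell cycle genes, developmental regulators and the cell type markers. At the background of 0.136%, lists of such sizes would mostly hold 0, so this count says little about these genes. Of 151 developmental regulators, 12 were marked in KO and 43 in WT, and Bmp4, Foxd4 and Sox6 had KO-only peaks of 35, 55 and 31 tags within 50 kb. Sp5, a known target of Wnt signalling, had 1 of 31 tags at 15.3 kb.

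By position, the KO-only peaks lay away from promoters. Only 26 of 390 (6.67%, 4.59 to 9.59) came within 1 kb of the TSS of a protein-coding gene, against 83.2% of all KO peaks, 86.0% of shared KO peaks and 41.8% of WT-only peaks. Inside genes lay 128 (32.8%), against 7.58% and 27.2%, and between genes 236 (60.5%), against 6.44% and 31.0%. Weak peaks differ in position from strong ones, so the share was also taken over peaks of 22 to 100 tags. It was 23 of 373 KO-only peaks (6.17%, 4.14 to 9.08), 152 of 382 shared KO peaks (39.8%, 35.0 to 44.8) and 889 of 2334 WT-only peaks (38.1%, 36.1 to 40.1). The intervals of the KO-only peaks and of both other sets did not overlap. Within this range the sets were not matched for tags, so it does not set peak strength aside. The median was 75.5 KO tags in the 364 matched pairs with at most 100 KO tags, against 37 over all 390 KO-only peaks. Within 1 kb of a miRNA hairpin lay 0 of the 390 (0 to 0.975%), against 1.152% of shared KO and 0.712% of WT-only peaks.

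**Figure D3:**
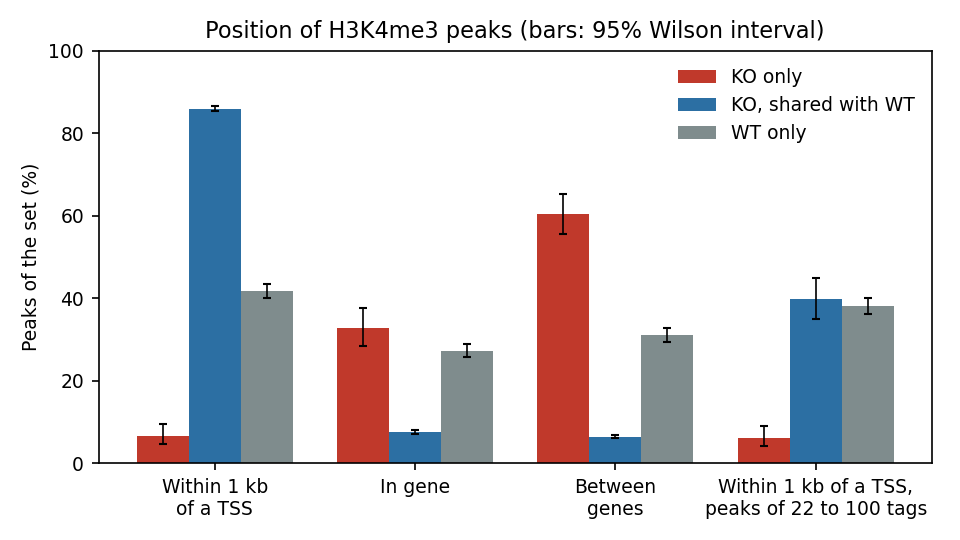
Percentage of each set of H3K4me3 peaks within 1 kb of a protein-coding TSS, in genes and between genes, with the promoter share repeated for peaks of 22 to 100 tags; error bars are 95% Wilson intervals. KO-only peaks are mostly between genes (60.5%). Their promoter share is 6.17% over peaks of 22 to 100 tags, against 39.8% for shared KO peaks, a range not matched for tags.

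Tcf1 antibody peaks in KO cells, which lack an intact Tcf7, were next compared with these regions. A base was shared with a KO Tcf1 antibody peak by 70 of 390 (17.9%, 14.5 to 22.1), against 0.922% of all KO peaks, 32 of 10673 shared KO peaks (0.300%) and 219 of 3089 WT-only peaks (7.09%). Among peaks of 22 to 100 tags the shares were 17.7% (14.2 to 21.9) for KO-only, 3.66% (2.20 to 6.06) for shared KO and 7.58% (6.58 to 8.73) for WT-only peaks. Outside promoters they were 18.7%, 1.74% and 11.6%. Within the range of 22 to 100 tags the sets were not matched for tags. With WT Tcf1 peaks, 3 KO-only peaks shared a base (0.769%, 0.262 to 2.24), against 0.362% of all KO peaks, 0.347% of shared KO peaks and 1.97% of WT-only peaks. The lists were of unequal length, with 5090 Tcf1 peaks in KO and 848 in WT, and 71 of the 5090 (1.39%) met a KO-only H3K4me3 peak.

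The Tcf1 antibody peaks at these 70 places held 11 to 171 tags, with a median of 18, against 14 over the whole KO Tcf1 list. Their median score was 72.9, against 57.9, and 21 of the 70 (30%, 20.5 to 41.5) met a Tcf1 peak scoring at least 100, against 263 of 5090 (5.17%, 4.59 to 5.81) in the list. They were thus larger than the list at large, although their listed FDR had a median of 100% and a lowest value of 4.55%. Wider peaks share a base more readily, and the list includes these peaks, so the contrast in size is a description only. The summits of both marks were a median of 73.5 bp apart, and in 54 of 70 they were within 200 bp. Sharing a base already limits this distance, which was not taken for the other sets. The 70 H3K4me3 peaks had a median width of 963 bp, and peaks of the KO Tcf1 list 419 bp. At these places both KO immunoprecipitates had a peak, with nearby summits in most. Of the 70, 55 were between genes (78.6%, 67.6 to 86.6), against 181 of the 320 without a Tcf1 antibody peak (56.6%, 51.1 to 61.9). At promoters were 2 of the 70 (2.86%, 0.787 to 9.83) and 24 of the 320 (7.5%, 5.09 to 10.9), intervals that overlap. The part of background common to both KO libraries in this overlap was not tested, since values of the input libraries were not analysed here.

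The KO-only peaks with most tags after Coro2a were of this kind. Near Gm21119 (chr8:20695648-20700062) there were 307 H3K4me3 tags over a Tcf1 antibody peak of 85 tags, near 9530057J20Rik (chr8:20068913-20073086) 287 over 111, and in Sp110 and Sp140, genes of nuclear body proteins (chr1:85607759-85612130), 265 over 32. These were wide regions of low fold enrichment, from 3.2 to 3.72. Cerk (chr15:86194412-86195554) differed in that its Tcf1 antibody peak was found in both genotypes, with 171 tags in KO and 119 in WT. The same held for a peak on chromosome 15 (chr15:47539683-47540365, 81 H3K4me3 tags), with 78 Tcf1 tags in KO and 69 in WT. The nearest known protein-coding TSS was 2751.6 kb from it. The third peak over a WT Tcf1 peak, near Zswim2, met 16 WT Tcf1 tags and no KO Tcf1 peak.

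**Figure D4:**
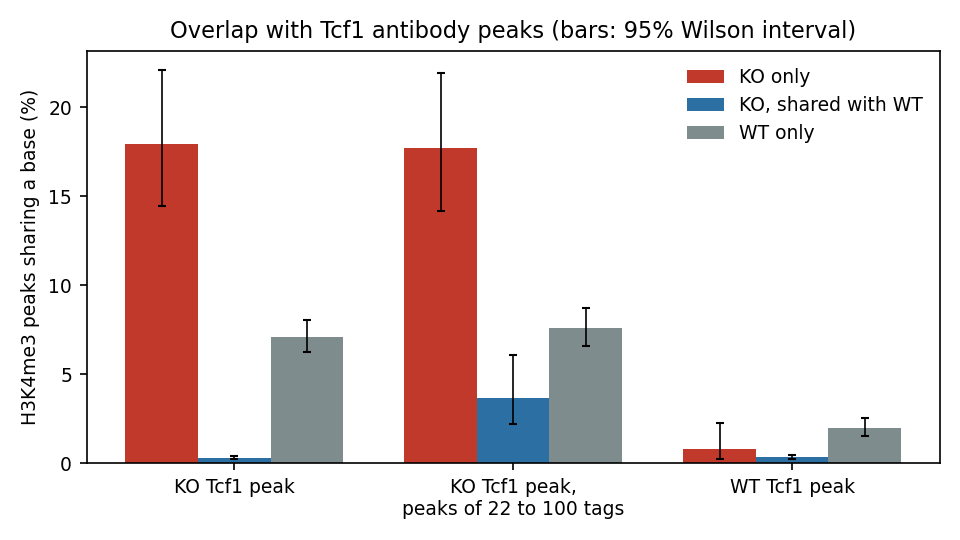
Percentage of each set of H3K4me3 peaks sharing a base with a KO Tcf1 antibody peak, for all peaks and for peaks of 22 to 100 tags, and with a WT Tcf1 antibody peak; error bars are 95% Wilson intervals. KO-only peaks reach 17.9% over KO Tcf1 peaks, against 0.300% of shared KO peaks, and 0.769% over WT Tcf1 peaks.

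Pseudogenes are mostly disabled copies of genes. Regions that the RefSeq table types as pseudogenes lay under 42 of the 390 peaks (10.8%, 8.07 to 14.2), against 2.33% of all KO peaks, 2.02% of shared KO peaks and 3.66% of WT-only peaks. Outside promoters the shares were 11.5% (8.65 to 15.2) for KO-only, 10.4% (8.92 to 12.01) for shared KO and 6.11% (5.10 to 7.32) for WT-only peaks. Over peaks of 22 to 100 tags they were 10.7%, 19.9% and 4.07%. Outside promoters the KO-only and shared KO intervals overlapped. Over the range of 22 to 100 tags, not matched for tags, the share was lower in KO-only than in shared KO peaks. The highest fold enrichments gathered there, with 5 of the top 10 over a pseudogene. Atp6v0c-ps2 had the highest of all 390 at 10.18 (79 tags), Gm6745 in Fam126a had 9.5 (57 tags), and Gm10157 in Itga9 had 9.32 (47 tags). Gm17868, with Fam78b as the nearest gene, had 8.55 (59 tags), and Gm10269 near Ttr had 8.27 (48 tags). Of the 21 peaks scoring at least 100, 5 were over a region so typed (23.8%). The table's type also takes in Zfp683 and Rnls, which are known to encode proteins; without them the counts were 40 of 390 (10.3%) and 4 of 21 (19.05%). Reads from a pseudogene and its parent can be exchanged.

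By chromosome, X held 24 of the 390 peaks (6.15%), against 3.37% of all KO peaks. The share of KO peaks that were KO-only was 24 of 373 on X (6.43%, 4.36 to 9.40) and 366 of 10690 on autosomes (3.42%, 3.10 to 3.79). Chromosome 18 had a like share, 19 of 299 (6.35%, 4.11 to 9.71), and the lowest were chromosome 19 with 8 of 385 (2.08%, 1.06 to 4.05) and chromosome 11 with 19 of 898 (2.12%, 1.36 to 3.28). X was also the chromosome with the highest WT-only share, 27.8% of WT peaks against 22.3% on autosomes. On X the most tags were 70 in a peak between genes, 898 kb from the TSS of Diaph2, with an FDR of 2.7%. The intervals cover counting error only and are not corrected for the 20 chromosomes looked at. KO also had 4 peaks at genes of chromosome Y where WT had none, and the part of the animals' sex, which is not given in the sources used here, in the share on X was not tested.

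**Figure D5:**
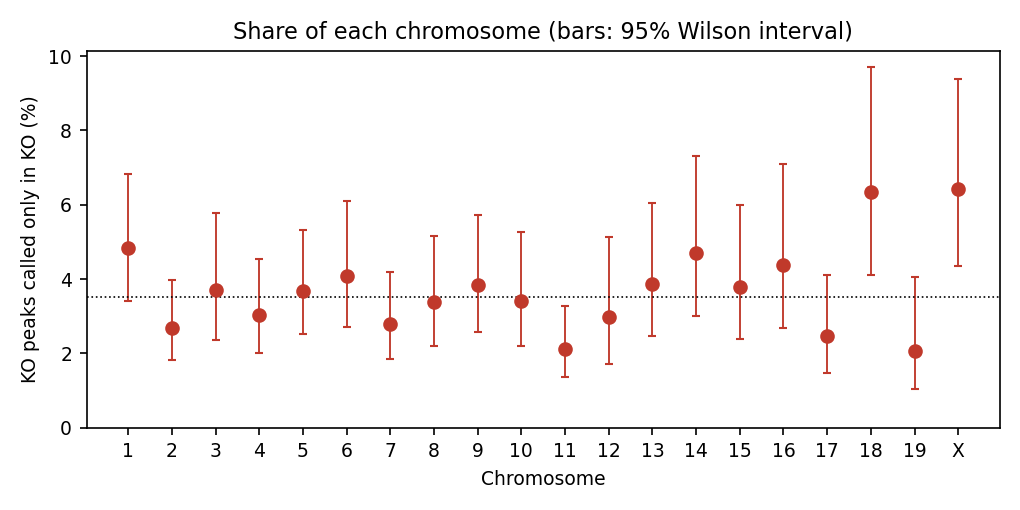
Percentage of KO H3K4me3 peaks on each chromosome that were called only in KO, with 95% Wilson intervals; the dotted line is the share over all of them, 3.53%. X (6.43%) and chromosome 18 (6.35%) are highest, and chromosomes 11 and 19 are lowest at 2.12 and 2.08%.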

How the data were processed

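Splenic NK cells of both genotypes were sequenced after chromatin immunoprecipitation, single-end at 100 bases with inserts of 100 to 400 bp, per the labels. Bowtie2 2.1.0 (alignment software) and MACS 1.4 (a peak caller) appear in the submitters' processing notes, as do GRCm38, mm10 and GRCh37, without saying which build served which step. Positions were read as GRCm38/mm10. Peak settings and the control track are not given in the sources used here. Peaks were called per library.

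Per peak, the authors deposited a count of tags with no scaling for depth, a score of 10 times the negative log10 p-value, a fold (ratio over the caller's background) and an FDR in percent, per the file headers. Depth of the libraries is unknown. The lists repeat a peak for each gene feature, and each peak was kept once. Start positions count from 0 in the lists (3 are at 0) and count from 1 here.

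A peak counted as shared when it met a peak of the other list over at least 1 bp. A TSS was known for 19784 of 21631 protein-coding genes, 17274 from RefSeq promoters and 2510 from the strand of features in the lists. Shares have 95% Wilson intervals and tag counts exact Poisson intervals. With 1 library per group no test was run. Self-tests of the overlap code used simulated data. The peaks and the 15 gene lists were chosen with earlier results of these data known. Named were the 12 peaks of most tags, the 12 of highest score, the 10 of highest fold, those at listed genes, up to 15 with most tags at 50 kb or more from WT peaks, up to 15 at promoters with no WT peak, up to 8 over Tcf1 peaks and 4 on each side of the rule, by the gene they lay in or nearest. Other peaks named were chosen after their values were seen. The work ran in Python 3.11.15 (scipy 1.17.1, pandas 2.3.3, numpy 2.4.6), and figures were drawn with matplotlib 3.10.9.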

Additional observations from a re-analysis of the deposited data

Results flagged for a closer look

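A signal appeared on chromosome Y, which the comparisons above do not use. There, 4 KO H3K4me3 peaks shared no base with a WT peak, with 340 tags in all, 116 at Ddx3y, 96 at Eif2s3y, 80 at Uty and 48 at Kdm5d. No WT peak was listed at these 4 genes. On all of Y there were 6 peaks in KO and 9 in WT. The X-linked gene Xist carried 537 H3K4me3 tags in KO and 539 in WT. The sex of the mice was not given in the sources used here, and any difference in it cannot be told apart from genotype.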

How the results depend on the processing

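Of 36 alternatives, 27 were counted as near the values given above and 9 as moved. Counted as near were 502 KO-only peaks when only WT peaks scoring at least 100 were used. So were 320 without those over KO Tcf1 peaks. Also counted as near were 9.52% within 1 kb of a TSS among peaks scoring at least 100, against 6.67%. The same held for 7 listed genes within 2.5 kb, against 5 within 1 kb. The number of KO-only peaks, 390, was 21 with KO peaks scoring at least 100, 5 with an FDR of at most 1% in both lists, and 743 with lists of equal length. Within 2.5 kb of a TSS lay 9.74% of them. Over KO Tcf1 peaks scoring at least 100 lay 5.38%. For KO-only peaks scoring at least 100, 96.7% of shared KO peaks held more tags than their median, against 99.9% for all 390, and 57.1% lay within 50 kb of a WT peak. Over pseudogenes lay 23.8% of the same peaks, or 19.05% without Zfp683 and Rnls, both chosen after seeing the data, as were the other pseudogene alternatives and those leaving out peaks over KO Tcf1 peaks. The cause was not tested, beyond that stricter settings keep fewer peaks by construction. No paired analysis was possible because each group holds 1 library. Nor could a replicate be left out. Weak peaks limit all shares: 95 of 390 held at least 50 tags, and absence of a WT peak does not show absence of the mark.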

Other observations

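Further KO-only peaks lay outside the promoters of protein-coding genes. The pair nearest to Serpinb9g, a gene of the serpin cluster on chromosome 13, held 38 and 75 tags, 394 and 366 kb from a WT peak, and the larger lay within 1 kb of the start of the noncoding RNA gene Gm6093. Cacna1a, a calcium channel gene, had a pair of KO-only peaks with 89 tags in all, and Pcdh7, a protocadherin gene, had a pair with 81. Near LOC108167368 on chromosome 12 there were 162 tags with an FDR of 16.1%, and near Lyzl1 on chromosome 18 there were 119 with an FDR of 28.5%.

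Downstream of Slc30a1, a zinc transporter gene, 97 tags had a score of 148.58 and an FDR of 1.54%, over both the pseudogene Gm39743 and a KO Tcf1 antibody peak of 21 tags. In Enox1, 67 tags had a fold enrichment of 8.69, with no listed pseudogene there. A peak of 88 tags near the lectin gene Cd209b and a peak of 95 in Rsrc1 lay over KO Tcf1 antibody peaks of 16 and 15 tags. A peak of 79 tags whose nearest gene is Mmp16 lay over 1 of 22 tags. Near Dhx40, an RNA helicase gene, 86 tags had an FDR of 4.98%, in Agbl1 89 tags had 21.0%, and near H2bl1 104 tags had 26.04%. Farthest from WT peaks was a region 2902 kb away, with 44 tags, whose nearest start site was that of Pcdh18.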
